A study of Mus musculus with 15 samples.

Results

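The 39 genes described here encode nuclear subunits of mitochondrial respiratory complexes II, III and IV, the electron carrier cytochrome c, and ATP synthase (complex V). They were chosen by name, as the rows of the deposited count table whose Ensembl identifier carries one of the listed mouse symbols; the rule uses no measured value, but the list was drawn up with earlier results of these data known. All 39 were found among the 37991 identifiers of the table, 26485 of which had at least 1 count. The members were 4 genes of complex II, 9 of complex III, 1 of cytochrome c, 10 of complex IV and 15 of complex V. Every one of them passed the filter on low counts in every comparison.

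Messenger RNA was sequenced from fat of mice on a C57BL/6 background that were IL-33-/- or wild type. IL-33 is a cytokine of the interleukin-1 family that signals through the receptor ST2, and the study's title links both to uncoupled respiration in fat cells. There were 3 libraries of inguinal white fat labelled IL-33-/- (numbered 2 to 4) and 4 of wild-type inguinal fat, both from postnatal day 24. Brown fat was represented by 4 libraries labelled IL-33-/- and 4 wild-type libraries, both from postnatal day 0.5. Tissue and age therefore changed together. The labels give no sex and do not say whether each library is a separate animal, so the p-values measure the spread between libraries, which may be technical. The labels name no treatment.

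In the respiratory chain, complex II passes electrons from succinate to ubiquinone, complex III passes them from ubiquinol to cytochrome c, and complex IV passes them from cytochrome c to oxygen. Complexes III and IV pump protons across the inner mitochondrial membrane, and complex V uses the returning protons to make ATP. Brown and beige adipocytes are rich in mitochondria and can let protons return through the uncoupling protein UCP1, which releases heat in place of ATP. Brown fat is also known for a low content of assembled ATP synthase relative to its respiratory chain, which in rodents has been tied to low expression of the c subunit.

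Promoter sequence of members whose mRNA differed in inguinal fat is shown first, to give the regulatory context of the 3 complex II genes with an entry and of Atp5g3, a complex V gene that moved the other way. The sequences are from RefSeq on build GRCm38.p6 and give the 250 bases before the annotated start, 5′ to 3′ on the strand of the gene. Capitals mark exact matches, on either strand, to a nuclear respiratory factor 1 (NRF1) motif read as GCGC, any base, then TGCGC, a GABPA (NRF2) motif written CCGGAAG, or an estrogen-related receptor (ERR) motif written AAGGTCA. No matches of different motifs overlapped in these 4 windows.
Sdha (chr13:74350241-74350490, minus strand): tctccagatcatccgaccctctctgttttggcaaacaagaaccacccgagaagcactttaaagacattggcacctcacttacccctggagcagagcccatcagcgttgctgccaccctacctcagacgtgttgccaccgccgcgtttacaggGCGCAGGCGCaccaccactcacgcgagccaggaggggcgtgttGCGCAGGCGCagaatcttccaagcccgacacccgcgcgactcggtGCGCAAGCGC
Sdhb (chr4:140961021-140961270, plus strand): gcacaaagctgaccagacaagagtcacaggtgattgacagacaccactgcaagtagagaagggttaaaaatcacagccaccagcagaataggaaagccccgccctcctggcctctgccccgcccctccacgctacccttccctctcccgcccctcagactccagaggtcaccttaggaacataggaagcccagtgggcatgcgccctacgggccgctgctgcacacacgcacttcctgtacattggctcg
Sdhd (chr9:50603850-50604099, minus strand): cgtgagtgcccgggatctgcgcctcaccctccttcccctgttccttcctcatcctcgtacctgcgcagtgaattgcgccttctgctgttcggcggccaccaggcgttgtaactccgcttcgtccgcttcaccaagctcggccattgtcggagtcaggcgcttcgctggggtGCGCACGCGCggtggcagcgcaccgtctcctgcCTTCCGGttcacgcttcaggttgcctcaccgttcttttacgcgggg
Atp5g3 (chr2:73911327-73911576, minus strand): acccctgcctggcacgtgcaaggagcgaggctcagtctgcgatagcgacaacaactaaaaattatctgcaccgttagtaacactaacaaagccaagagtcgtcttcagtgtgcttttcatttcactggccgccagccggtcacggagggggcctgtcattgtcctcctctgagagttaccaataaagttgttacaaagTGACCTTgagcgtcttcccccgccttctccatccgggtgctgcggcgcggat

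The Sdha window held 3 matches to the NRF1 motif. The Sdhd window held 1 match to the NRF1 motif and 1 to the GABPA motif. The Atp5g3 window held 1 match to the ERR motif, and the Sdhb window held none of the 3 motifs. RefSeq windows were matched for 31 of the 39 members; no window was used for Sdhc, Uqcrb, Uqcrc2, Uqcrq, Cyc1, Cox4i1, Cox6c and Atp5a1. At least 1 of the motifs was present in 14 of the 31 members (45.2%), beside 13.9% of all 32851 windows. The units differ: the 31 members had 34 windows, and a member counted if any of its windows held a match. The NRF1 motif was in 22.6% of members and 3.74% of all windows, the GABPA motif in 29.0% and 6.91%, and the ERR motif in 6.45% and 4.08%. Windows of members also had more G and C, with a median of 55.4%, against 52.4% in all windows. Among members with a window, at least 1 motif was present in 2 of the 6 that rose in inguinal fat, in all 3 that fell and in 9 of the 22 that did not pass the test. A match describes the letters only and does not show that a factor binds there.

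Total counts ran from 30835337 to 38765633 in inguinal knockout libraries and from 26059635 to 53923009 in inguinal wild-type libraries. They ran from 33782634 to 40802095 in brown labelled knockout libraries and from 31661512 to 41926108 in brown wild-type libraries. Il33 (ENSMUSG00000024810) was checked first against the labels. Its level was 0.346, 0.471 and 0.0791 CPM (counts scaled to a common library size by TMM) in the inguinal knockout libraries, against 3.45, 4.61, 3.81 and 3.55 CPM in the wild-type libraries (log2 change -3.73 ± 0.36 SE, edgeR adjusted p = 1.25e-05). In brown fat it was 0.413, 1.75, 1.41 and 0.594 CPM in the labelled knockout libraries, against 1.82, 3.21, 2.01 and 1.73 CPM in the wild-type libraries (log2 change -1.08 ± 0.44 SE, edgeR adjusted p = 0.229). The brown groups overlapped, since labelled knockout library 2 (1.75 CPM) lay above the lowest wild-type library (1.73 CPM), so Il33 did not settle their labels. Brown library 1 of the labelled knockout group had the lowest Il33 of the brown libraries, yet it stood apart from its group by another measure. On the first principal component of the brown libraries, which held 39.6% of the variance, it lay at -38.1. The other 3 labelled knockout libraries lay at 24.7 to 58.8 and the wild-type libraries at -29 to -21.1. Brown calls are therefore given with and without it, as are the values it moves most. Because it was singled out from these same data, leaving it out favours separation of the groups. All 37 mitochondrially encoded genes had 0 counts in every library, so the subunits of complexes III to V that mitochondrial DNA encodes were not measured. Near-identical copies of 16 members are counted in the table, the largest being 4930481A15Rik with 5.82% of the counts of Uqcr10. The annotation places 10 members over another counted gene, among them Atp5j over Gabpa and Atp5a1 over Haus1, and values of such pairs are less certain.

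In inguinal fat, mRNA of every complex II subunit was higher in knockout than in wild-type libraries, and so was that of the core subunits of complex III and of the catalytic subunits of complex V. No complex IV member passed the test, but among isoform genes outside the 39 members Cox7a1 and Cox8b rose and Cox4i2 fell. Among the genes of complex V, 3 rose and 3 fell. In all, 14 of the 39 members passed the test, or 35.9%, beside 28.6% of the 15710 genes tested, so the whole set of members stood near the background. Of these, 11 were higher, beside 15.3% of all genes, and 3 were lower, beside 13.3%. The median log2 change was 0.12 over the members and -0.02 over all genes tested. Calls were made at an adjusted p below 0.05 with edgeR's quasi-likelihood test and Benjamini-Hochberg adjustment over all genes of the fit.

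**Figure D1:**
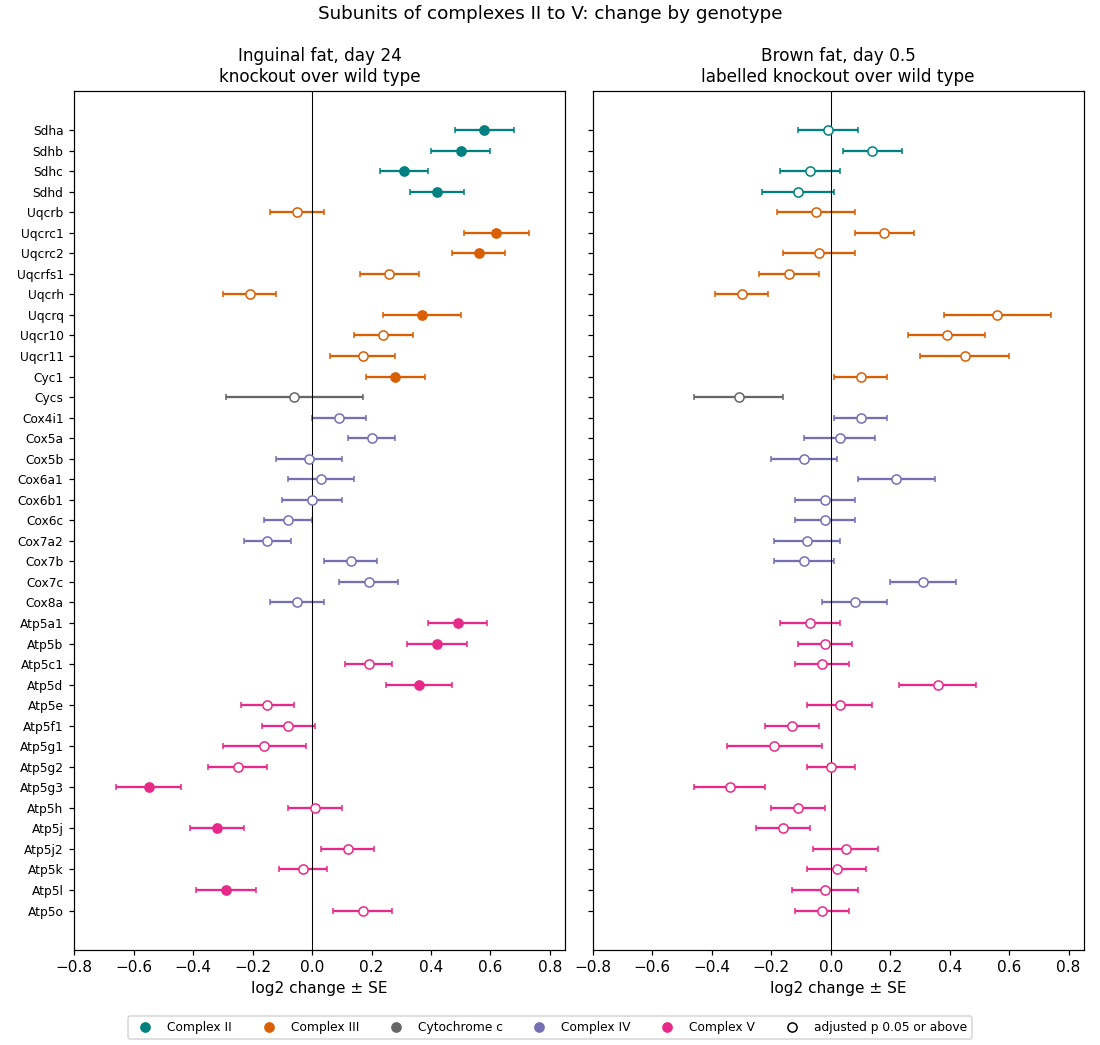
Log2 change (x axis) of each of the 39 members (y axis) between knockout and wild-type inguinal fat (left) and between labelled knockout and wild-type brown fat (right). Points are edgeR estimates, bars are 1 SE, filled points passed an adjusted p below 0.05, and colours mark the complex. In inguinal fat all 4 complex II points are filled and lie to the right of 0, and no complex IV point is filled; in brown fat no point is filled.

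Summed over the subunits of a complex, the level of complex II was 3842, 3822 and 3444 CPM in knockout libraries 2 to 4, against 2739, 2632, 2733 and 2417 CPM in wild-type libraries 1 to 4. The lowest knockout library lay above the highest wild-type library. Group means were 3703 ± 225 CPM (SD, n = 3) in knockout and 2630.1 ± 150.1 CPM (SD, n = 4) in wild-type fat, a ratio of 1.41. For complex III the means were 5018 ± 251 CPM in knockout and 4016 ± 151 CPM in wild-type fat (SD, ratio 1.25). Complex IV averaged 4389 ± 209 CPM in knockout and 4349 ± 154 CPM in wild-type fat (SD, ratio 1.01), and its libraries overlapped; scaled by the total count in place of TMM, the ratio was 0.949, on the other side of 1. Complex V averaged 11859.5 ± 649 CPM in knockout and 9832 ± 223 CPM in wild-type fat (SD, ratio 1.21), without overlap. The sums weigh long and abundant transcripts more than short or rare ones. No test was made on the sums. In bulk tissue, more cells of a type and more mRNA per cell cannot be told apart.

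All 4 genes of complex II rose. Sdha (ENSMUSG00000021577), the flavoprotein subunit that oxidises succinate, had 2136, 2145 and 1846 CPM in knockout libraries, against 1430.0, 1395, 1455 and 1227 CPM in wild-type libraries (log2 change 0.58 ± 0.10 SE, edgeR adjusted p = 0.00102). Sdhb (ENSMUSG00000009863), which carries the iron-sulfur clusters, had 658, 559 and 598 CPM in knockout libraries, against 461, 428, 452 and 391 CPM in wild-type libraries (log2 change 0.50 ± 0.10 SE, edgeR adjusted p = 0.00194). The groups did not overlap for either gene, and wild-type library 4 was the lowest of all 7 for both. Sdhc (ENSMUSG00000058076) and Sdhd (ENSMUSG00000000171) encode the membrane anchors that bind ubiquinone. Sdhc had 432, 457 and 425 CPM in knockout libraries, against 366, 349, 361 and 348 CPM in wild-type libraries (log2 change 0.31 ± 0.08 SE, edgeR adjusted p = 0.0126). Sdhd had 617, 660.1 and 574 CPM in knockout libraries, against 482, 460.2, 466 and 452 CPM in wild-type libraries (log2 change 0.42 ± 0.09 SE, edgeR adjusted p = 0.00319). The groups were again separate, and knockout library 3 was the highest for both anchors. Without that library Sdhc missed the threshold, with an edgeR adjusted p of 0.0515. None of the 4 complex II assembly factors on the list passed the test, and their changes ran from -0.11 to 0.11 on the log2 scale.

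**Figure D2:**
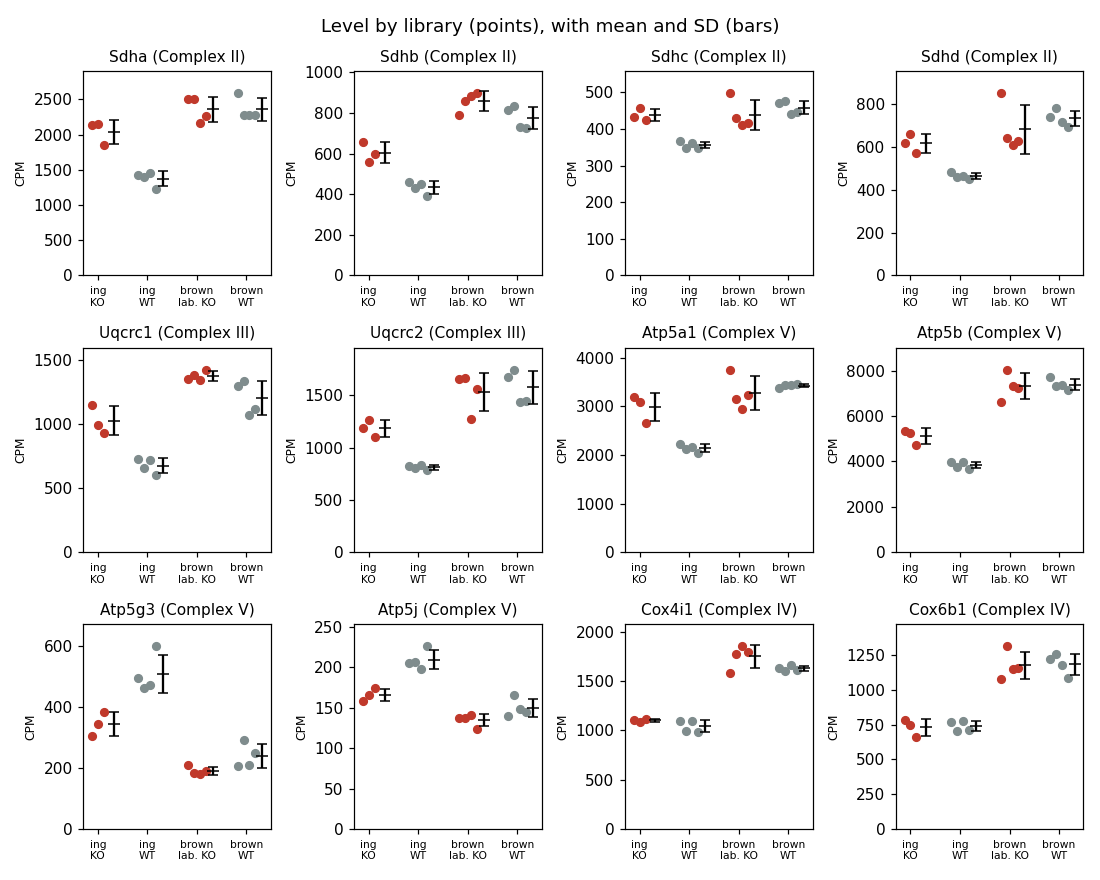
Level in CPM (y axis, from 0) of 12 members in each library, by group (x axis): inguinal (ing) knockout, inguinal wild type, brown labelled knockout (lab. KO) and brown wild type. Points are libraries, bars the mean and SD. For the complex II genes, Uqcrc1, Uqcrc2, Atp5a1 and Atp5b every inguinal knockout point lies above every inguinal wild-type point, for Atp5g3 and Atp5j every one lies below, and for Cox4i1 and Cox6b1 the points overlap.

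Of the 9 complex III genes, 4 rose in inguinal fat and none fell. Uqcrc1 and Uqcrc2 encode the large core proteins on the matrix side. Uqcrc1 had 1153, 997 and 931 CPM in knockout libraries, against 732, 654, 718 and 601 CPM in wild-type libraries (log2 change 0.62 ± 0.11 SE, edgeR adjusted p = 0.000934). Uqcrc2 had 1187, 1266 and 1102 CPM in knockout libraries, against 824, 808, 837 and 783 CPM in wild-type libraries (log2 change 0.56 ± 0.09 SE, edgeR adjusted p = 0.000605). Both pairs of groups were separate. Cyc1, the cytochrome c1 subunit that hands electrons to cytochrome c, had 821, 724 and 662 CPM in knockout libraries, against 629, 584, 637 and 603 CPM in wild-type libraries (log2 change 0.28 ± 0.10 SE, edgeR adjusted p = 0.0499). It stood at the threshold and lost its call in 13 of 16 alternative settings, among them the omission of any single library other than knockout library 4. Uqcrq, a small accessory subunit, had 316, 215 and 269 CPM in knockout libraries, against 244, 196, 205 and 189.6 CPM in wild-type libraries (log2 change 0.37 ± 0.13 SE, edgeR adjusted p = 0.0453). Here the groups overlapped, since knockout library 3 lay below wild-type library 1, and the call was lost in 9 of 16 settings, among them without knockout library 2 or 4 or wild-type library 2, 3 or 4. The Rieske iron-sulfur protein gene Uqcrfs1 had 631, 793 and 744 CPM in knockout libraries, against 609, 599, 619.6 and 600.0 CPM in wild-type libraries, and just missed the threshold (log2 change 0.26 ± 0.10 SE, edgeR adjusted p = 0.0507); it passed in 4 of 16 settings.

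The other small subunits of complex III did not pass. Their log2 changes with SE were -0.05 ± 0.09 for Uqcrb, 0.24 ± 0.10 for Uqcr10 and 0.17 ± 0.11 for Uqcr11. The hinge protein gene Uqcrh, with -0.21 ± 0.09, was below wild type in every knockout library but had an edgeR adjusted p of 0.0998. Among 6 assembly factors of complex III, only Uqcc1 passed (log2 change 0.63 ± 0.10 SE, edgeR adjusted p = 0.000437). Cycs, which encodes somatic cytochrome c, had 179, 412 and 350.3 CPM in knockout libraries, against 316, 326, 318 and 359.6 CPM in wild-type libraries (log2 change -0.06 ± 0.23 SE, edgeR adjusted p = 0.869). Knockout library 2 was below every other inguinal library, library 3 lay above the wild-type range and library 4 within it. Without knockout library 2 the log2 change of Cycs was 0.22, still short of the threshold.

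None of the 10 complex IV members passed in inguinal fat with edgeR, and 1 had an unadjusted p below 0.05. DESeq2, limma-voom and each other alternative setting gave the same count of 0. Cox4i1, a nuclear subunit that takes part in regulation by ATP, had 1107, 1086 and 1111 CPM in knockout libraries, against 1092, 993, 1100.0 and 987 CPM in wild-type libraries (log2 change 0.09 ± 0.09 SE, edgeR adjusted p = 0.489). Cox5a, a subunit on the matrix side, came nearest to a call, with 118, 116 and 134 CPM in knockout libraries, against 112, 106, 108 and 106 CPM in wild-type libraries (log2 change 0.20 ± 0.08 SE, edgeR adjusted p = 0.0956). The groups overlapped for Cox4i1 and not for Cox5a. Over the 10 genes the log2 changes ran from -0.15 (Cox7a2) to 0.20 (Cox5a), with SEs of 0.08 to 0.11, 5 above and 5 below 0. In simulated counts for this comparison, 46.3% of genes changed 1.5 fold were recovered, and 6.63% of the genes called had not been changed. The changed genes were drawn at random from all genes tested, so 46.3% is not the recovery for abundant genes such as these. All changes among the 10 members of complex IV were smaller than 1.5 fold. So were those of called members of other complexes, such as Sdhc, Sdhd and Atp5b.

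Some complex IV subunits are encoded by more than 1 gene, each with its own tissue range. Cox7a1 and Cox8b, the forms found in heart, muscle and brown fat, rose in inguinal knockout fat, while their ubiquitous counterparts Cox7a2 and Cox8a did not pass. Cox7a1 had 257, 241 and 226 CPM in knockout libraries, against 163, 171, 183 and 144 CPM in wild-type libraries (log2 change 0.56 ± 0.10 SE, edgeR adjusted p = 0.000926). Cox8b had 506, 344 and 368 CPM in knockout libraries, against 279, 295, 315 and 213 CPM in wild-type libraries (log2 change 0.57 ± 0.15 SE, edgeR adjusted p = 0.0142). Both were higher in every knockout library. Cox4i2, the form of subunit 4 linked to hypoxia and lung, fell, with 4.22, 2.99 and 3.24 CPM in knockout libraries, against 6.15, 5.24, 5.91 and 5.67 CPM in wild-type libraries (log2 change -0.71 ± 0.17 SE, edgeR adjusted p = 0.00601).

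Set against its partner within each library, the log2 ratio of Cox7a1 to Cox7a2 averaged -0.22 ± 0.10 in inguinal knockout and -0.93 ± 0.21 in wild-type fat (SD, n = 3 and 4). That of Cox8b to Cox8a averaged -0.07 ± 0.18 in knockout and -0.69 ± 0.25 in wild-type fat. Groups did not overlap for these ratios, and the ratio of Cox4i2 to Cox4i1 was likewise separate, lower by a log2 difference of -0.81. For each of these 3 ratios the exact two-sided permutation p was 0.02857, the smallest that 3 against 4 libraries allow, and 0.07143 after Benjamini-Hochberg adjustment over the 10 ratios tested in both tissues. The ratios of Cox6a2 to Cox6a1 and Cox6b2 to Cox6b1 overlapped between groups. In brown fat the Cox8b to Cox8a ratio averaged -0.29 ± 0.05 in labelled knockout and -0.50 ± 0.07 in wild-type libraries without overlap (exact permutation p = 0.02857, adjusted 0.07143), also with labelled knockout library 1 set aside. That of Cox7a1 to Cox7a2 averaged -0.15 ± 0.10 in labelled knockout and -0.26 ± 0.05 in wild-type libraries and overlapped (exact permutation p = 0.1143).

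**Figure D3:**
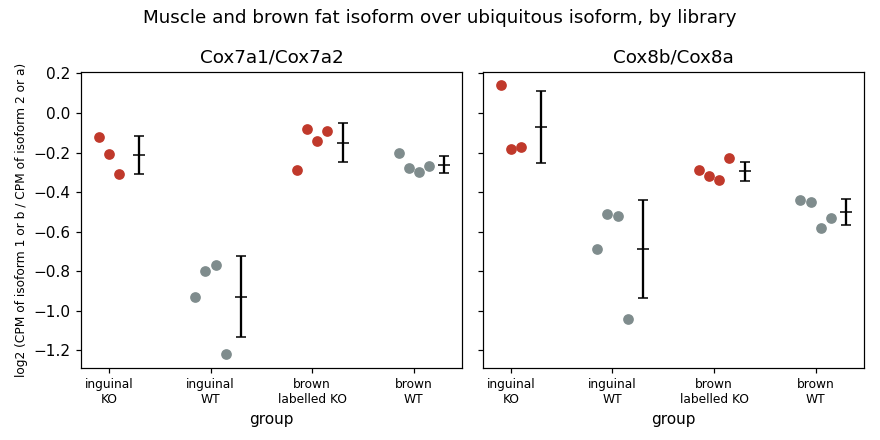
Log2 ratio (y axis) of Cox7a1 to Cox7a2 and of Cox8b to Cox8a in each library, by group (x axis), with mean and SD as bars. In inguinal fat every knockout library lies above every wild-type library for both ratios.

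Genes that assemble complex IV are listed apart from its subunits, and 9 of the 17 tested rose in inguinal knockout fat, with none lower. Taco1, a translational activator of mitochondrially encoded COX1, changed by 0.85 ± 0.11 (log2 ± SE, edgeR adjusted p = 0.000126). Cox10 and Cox15, which make the heme A of the enzyme, changed by 0.80 ± 0.11 and 0.62 ± 0.09 (edgeR adjusted p = 0.000185 and 0.000264). Lrpprc, which stabilises mitochondrial mRNA, changed by 0.57 ± 0.11 (edgeR adjusted p = 0.00171). Their knockout and wild-type libraries did not overlap. Of 13 regulators of mitochondrial biogenesis, 6 rose and none fell, among them the receptor gene Esrra (0.59 ± 0.11), the mitochondrial RNA polymerase gene Polrmt (0.69 ± 0.13), Gabpa (0.49 ± 0.10) and Tfb2m (0.49 ± 0.12). Of the 36 complex I subunits listed, 10 rose and none fell, or 27.8%. Of all genes tested, 28.6% passed in either direction, 15.3% higher and 13.3% lower.

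Of the 15 complex V genes, 3 of the catalytic head and central stalk rose and 3 of the membrane part and peripheral stalk fell. The α and β subunits, encoded by Atp5a1 and Atp5b, form the catalytic hexamer. Atp5a1 had 3193, 3091 and 2663 CPM in knockout libraries, against 2231, 2122, 2165 and 2031 CPM in wild-type libraries (log2 change 0.49 ± 0.10 SE, edgeR adjusted p = 0.00279). Atp5b had 5344, 5268 and 4704 CPM in knockout libraries, against 3961, 3767, 3987 and 3679 CPM in wild-type libraries (log2 change 0.42 ± 0.10 SE, edgeR adjusted p = 0.00685). Neither gene overlapped between groups, and library 4 was the lowest within each group. Atp5d encodes the δ subunit of the central stalk and had 417, 320.4 and 354 CPM in knockout libraries, against 315, 262, 294 and 272 CPM in wild-type libraries (log2 change 0.36 ± 0.11 SE, edgeR adjusted p = 0.0207). Its groups were separate by a small gap and its call was lost in 4 of 16 settings, among them without knockout library 2 or wild-type library 2 or 4. The γ and ε genes of the same stalk did not pass, with log2 changes of 0.19 ± 0.08 SE for Atp5c1 and -0.15 ± 0.09 SE for Atp5e.

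Atp5g1, Atp5g2 and Atp5g3 encode the same mature c subunit of the membrane ring, through which protons pass. Atp5g3 fell: it had 305, 344 and 385 CPM in knockout libraries, against 494, 463, 473 and 599 CPM in wild-type libraries (log2 change -0.55 ± 0.11 SE, edgeR adjusted p = 0.00277). The highest knockout library was below the lowest wild-type library, and wild-type library 4 stood above the rest. Atp5g2 had 109.5, 93.3 and 87.0 CPM in knockout libraries, against 116, 111, 118 and 121 CPM in wild-type libraries, and missed the threshold (log2 change -0.25 ± 0.10 SE, edgeR adjusted p = 0.0615) although the groups did not overlap; it passed in 4 of 16 settings. Atp5g1 overlapped between groups (log2 change -0.16 ± 0.14 SE). In the peripheral stalk, Atp5j, which encodes coupling factor 6, fell, with 158, 165 and 174 CPM in knockout libraries, against 206, 207, 198 and 226 CPM in wild-type libraries (log2 change -0.32 ± 0.09 SE, edgeR adjusted p = 0.0120). Its neighbour Gabpa, which overlaps it on the opposite strand, moved the other way, and because the strand setting of the counting is not given, reads of the pair cannot be told apart with certainty.

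The remaining members of the stalk, Atp5f1, Atp5h and Atp5o, had log2 changes of -0.08 ± 0.09, 0.01 ± 0.09 and 0.17 ± 0.10 SE and did not pass. Atp5l, the g subunit near the dimer interface, had 78.1, 96.8 and 107 CPM in knockout libraries, against 115, 115, 111 and 121 CPM in wild-type libraries (log2 change -0.29 ± 0.10 SE, edgeR adjusted p = 0.0466). All knockout libraries were lower, but the call was lost in 9 of 16 settings, among them the omission of any single library other than knockout library 4. Its neighbours in the membrane, Atp5k and Atp5j2, changed by -0.03 ± 0.08 and 0.12 ± 0.09 and did not pass. Outside the 39 members, Atpif1, the inhibitor that stops ATP hydrolysis by complex V, fell, with 18.2, 13.5 and 15.1 CPM in knockout libraries, against 23.0, 20.6, 26.4 and 28.0 CPM in wild-type libraries (log2 change -0.64 ± 0.13 SE, edgeR adjusted p = 0.00315). The assembly factor gene Atpaf2 rose by 0.38 ± 0.10 SE (edgeR adjusted p = 0.0109), and it was 1 of 3 complex V assembly factors to pass.

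Sdha, Sdhb, Sdhd, Uqcrc1, Uqcrc2, Atp5a1, Atp5b, Atp5g3 and Atp5j kept their calls in all 16 alternative settings tried for inguinal fat. The 20 members with a coding sequence of 408 nt or more held 10 of the 11 rises and 1 of the 3 falls, with a median log2 change of 0.27. The 19 shorter members held 1 rise and 2 falls, with a median of -0.03. Spearman's rho between coding length and log2 change was 0.52 across the 39 members and 0.08 across 13965 genes with a length. These values describe genes measured in the same 7 libraries, which are not independent, and no p is given; the part of length in the result was not tested.

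**Figure D4:**
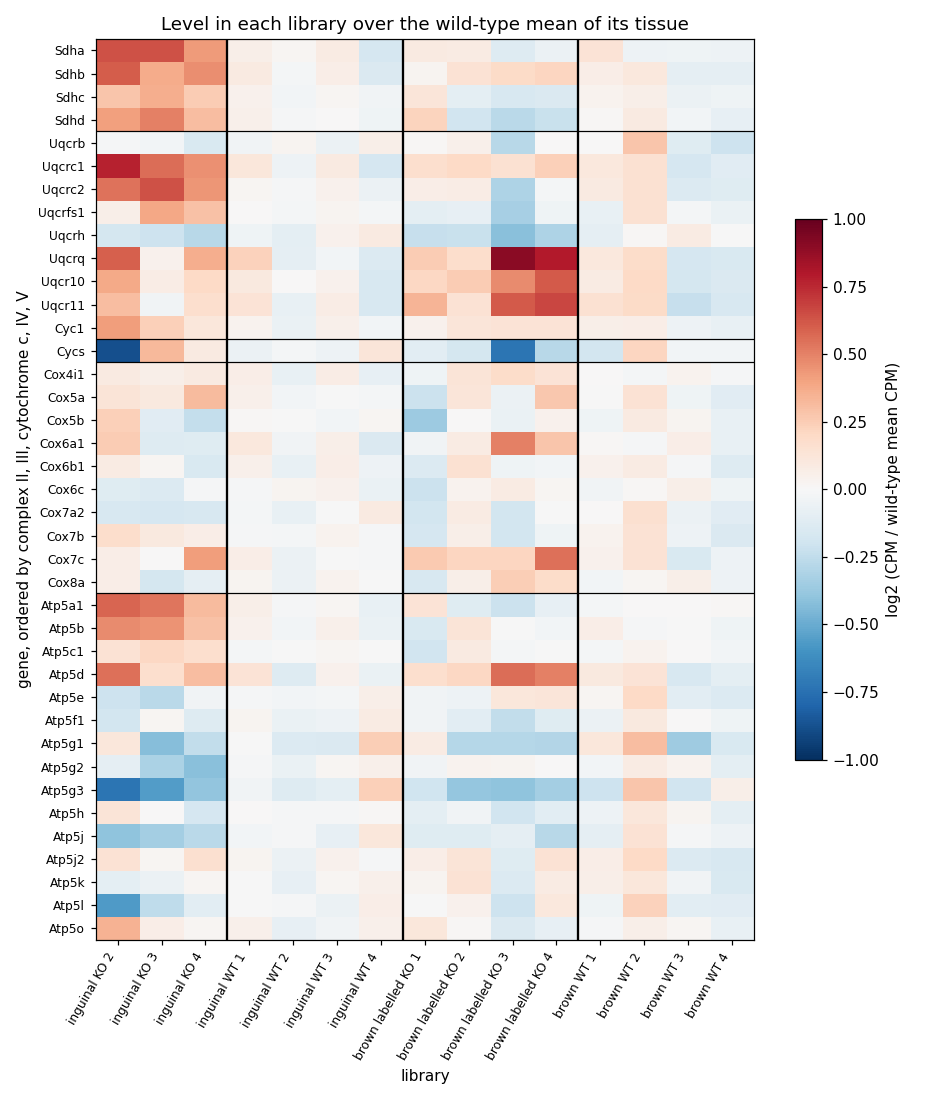
Log2 ratio of the CPM of each member (rows, by complex) in each library (columns) to the mean of the wild-type libraries of the same tissue; red is above and blue below that mean. Inguinal knockout libraries 2 to 4 are red for the complex II genes, Uqcrc1, Uqcrc2, Atp5a1 and Atp5b and blue for Atp5g3; among brown labelled knockout libraries, 3 and 4 are the reddest for Uqcrq, Uqcr10, Uqcr11 and Atp5d.

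Some lists of cell type markers also differed between the inguinal groups. The summed level of 13 skeletal muscle markers was 44.7 to 51.1 CPM in knockout libraries, against 149 to 424 CPM in wild-type libraries. Of the 12 of them tested, 11 were lower in knockout fat, and Tnnc2 had 0 counts in the knockout libraries. Brown and beige adipocyte markers summed to 2532 to 3161 CPM in knockout libraries, against 1216 to 1863 CPM in wild-type libraries, with 4 of 8 higher. General adipocyte markers summed to 22429.9 to 26334 CPM in knockout libraries, against 23447 to 24882 CPM in wild-type libraries, with 1 of 8 higher. Endothelial markers had 2 of 4 lower and B-cell markers 2 of 7 lower, while none of the 6 macrophage and none of the 7 erythroid markers passed. Epithelial markers, at low levels, summed to 0.104 to 0.135 CPM in knockout libraries, against 0.493 to 6.73 CPM in wild-type libraries. Of these, Krt5 had 0 counts in the knockout libraries. The part of these cell types in the changes of the members was not tested.

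In brown fat, no member passed the test between labelled knockout and wild type. The edgeR count was 0 of 39, beside 0.260% of the 15796 genes tested (0.184% higher and 0.0760% lower), and the median log2 change was -0.02 over the members and 0.01 over all genes. Without adjustment, 7 of the 39 had an edgeR p below 0.05, beside 2930 of the 15796 genes tested, a similar share. DESeq2 called 1 member and limma-voom 6. Group sums were close: complex II averaged 4338 ± 256 CPM in labelled knockout and 4326 ± 218 CPM in wild-type libraries, and complex III averaged 6839.5 ± 268 CPM in labelled knockout and 6567 ± 519 CPM in wild-type libraries (SD, n = 4 each). Complex IV averaged 7061 ± 515 CPM in labelled knockout and 6868 ± 259 CPM in wild-type libraries, and complex V averaged 15502 ± 511 CPM in labelled knockout and 15723 ± 382 CPM in wild-type libraries. Library 1 had 6288 CPM of complex IV, and the other 3 labelled knockout libraries had 7302 to 7332 CPM, above the 6514 to 7136 CPM of the wild-type libraries. Without it the ratio of labelled knockout to wild-type sums was 0.979 for complex II, 1.04 for complex III, 1.07 for complex IV and 0.992 for complex V. In simulated counts for this comparison, 4.48% of genes changed 1.5 fold and 62.7% of genes changed 2 fold were recovered, and 8.11% of the genes called there had not been changed. The changed genes were again drawn at random from all genes tested, not from the members.

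Complex II genes showed no common direction in brown fat. Sdha had 2505, 2501, 2159 and 2266 CPM in labelled knockout libraries, against 2596, 2274, 2284 and 2279.7 CPM in wild-type libraries (log2 change -0.01 ± 0.10 SE, edgeR adjusted p = 0.975). Sdhd had 854, 643, 609 and 628 CPM in labelled knockout libraries, against 739, 781, 718 and 695 CPM in wild-type libraries (log2 change -0.11 ± 0.12 SE, edgeR adjusted p = 0.674). Labelled knockout library 1 was the highest of the 8 for Sdhd, and the other 3 were below every wild-type library. Without library 1 the log2 change of Sdhd was -0.23 ± 0.09 SE, edgeR adjusted p = 0.0908. Sdhb had 790.1, 859, 886 and 899.6 CPM in labelled knockout libraries, against 813, 833, 729 and 728 CPM in wild-type libraries (log2 change 0.14 ± 0.10 SE, edgeR adjusted p = 0.463), and the groups overlapped.

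Uqcrq, Uqcr11 and Uqcr10, small subunits of complex III, had the largest log2 changes among members in brown fat, and none passed. Uqcrq had 261, 248, 409 and 379.9 CPM in labelled knockout libraries, against 236, 248, 195 and 198 CPM in wild-type libraries (log2 change 0.56 ± 0.18 SE, edgeR adjusted p = 0.155). Libraries 3 and 4 of the labelled knockout were well above the rest, and library 2 fell within the wild-type range. Uqcr10 had 267, 276, 323 and 355 CPM in labelled knockout libraries, against 245, 266, 205 and 210.3 CPM in wild-type libraries (log2 change 0.39 ± 0.13 SE, edgeR adjusted p = 0.163), and Uqcr11 differed by 0.45 ± 0.15 SE. The counted copy of Uqcr10 makes its values less certain. Uqcrh had 559, 561, 491 and 529 CPM in labelled knockout libraries, against 616, 662, 693 and 654 CPM in wild-type libraries (log2 change -0.30 ± 0.09 SE, edgeR adjusted p = 0.148). All labelled knockout libraries were lower for Uqcrh, while Uqcrb, another small subunit, differed by -0.05 ± 0.13 SE.

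Labelled knockout library 1 was singled out by its place among these same data, so adjusted p-values without it are likely too small. With labelled knockout library 1 left out, 5 of the 39 members passed, or 12.8%, beside 18.1% of 16071 genes (9.66% higher and 8.41% lower), so their share lay below the background, and the median log2 change was 0.02 over the members and -0.01 over all genes. Uqcrq (0.65 ± 0.17 SE, edgeR adjusted p = 0.0269), Uqcr10 (0.45 ± 0.12 SE, edgeR adjusted p = 0.0302), Uqcr11 (0.49 ± 0.15 SE, edgeR adjusted p = 0.0469) and Atp5d (0.43 ± 0.12 SE, edgeR adjusted p = 0.0323) were then higher. Uqcrh was lower (-0.32 ± 0.09 SE, edgeR adjusted p = 0.0380). No complex II or complex IV member passed. Outside the members, 1 of the 6 alternative isoform genes tested was higher. Sdha then had -0.04 ± 0.10 SE, edgeR adjusted p = 0.830, and Sdhb 0.18 ± 0.09 SE, edgeR adjusted p = 0.204. Atp5d had 514, 528, 673 and 649.5 CPM in labelled knockout libraries, against 489, 503, 409 and 429 CPM in wild-type libraries, with the group gap narrowest at labelled knockout library 1. Outside the members, assembly genes leaned downward in that fit, with 2 of 4 for complex II, 3 of 6 for complex III, 4 of 17 for complex IV and 3 of 3 for complex V lower, and 1 for complex IV higher.

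Cycs and 2 genes of complexes IV and V completed the brown values. Cycs had 437, 417, 284 and 388 CPM in labelled knockout libraries, against 414, 546, 461 and 464 CPM in wild-type libraries (log2 change -0.31 ± 0.15 SE, edgeR adjusted p = 0.285), with labelled knockout library 3 the lowest; without library 1 the log2 change was -0.38 ± 0.14 SE, edgeR adjusted p = 0.0862. Cox7c, a small complex IV subunit, had 135, 131, 131 and 165 CPM in labelled knockout libraries, against 117, 125, 102 and 109 CPM in wild-type libraries (log2 change 0.31 ± 0.11 SE, edgeR adjusted p = 0.183), without overlap. Atp5g3 had 209, 184, 182 and 189.9 CPM in labelled knockout libraries, against 208, 291, 209.8 and 250.4 CPM in wild-type libraries (log2 change -0.34 ± 0.12 SE, edgeR adjusted p = 0.199), with overlap. Without library 1, Cox7c had 0.33 ± 0.11 SE, edgeR adjusted p = 0.0610, and Atp5g3 -0.38 ± 0.12 SE, edgeR adjusted p = 0.0582, still short of the threshold. Muscle markers summed to 2431 to 4165 CPM in labelled knockout and 2437 to 4161 CPM in wild-type brown libraries, and none of the 12 tested passed. Erythroid markers summed to 809 to 3674 CPM in labelled knockout and 638 to 2154 CPM in wild-type libraries. Epithelial markers reached 68.8 CPM in labelled knockout library 4 and at most 1.29 CPM in the other brown libraries. Brown and beige markers summed to 3590.1 to 6928 CPM in labelled knockout and 5201 to 9481 CPM in wild-type libraries, a ratio of means of 0.744, or 0.832 without library 1. With all libraries none of the marker lists held a called gene. Without library 1, 3 of 8 brown and beige markers passed (1 higher and 2 lower), as did 2 of 6 macrophage markers (both higher), 1 of 4 endothelial (lower) and 1 of 8 adipocyte markers (lower). The part of these cell types in the brown values was not tested.

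The knockout effect in inguinal fat minus that in brown fat was tested in a fit of all 15 libraries. It passed for 5 of 39 members, or 12.8%, beside 9.00% of 16858 genes (4.80% higher and 4.20% lower), a share near the background of both directions together. In each of the 5 the inguinal effect was the greater, and the share of all genes in that direction was 4.80%. Sdha changed by 0.58 ± 0.10 in inguinal and -0.01 ± 0.10 in brown fat (difference of log2 changes 0.57 ± 0.14 SE, edgeR adjusted p = 0.0185). Uqcrc2 changed by 0.56 ± 0.09 in inguinal and -0.04 ± 0.12 in brown fat (difference 0.58 ± 0.15 SE, edgeR adjusted p = 0.0255). For Atp5a1 the changes were 0.49 ± 0.10 in inguinal and -0.07 ± 0.10 in brown fat (difference 0.55 ± 0.14 SE, edgeR adjusted p = 0.0209). Sdhd and Atp5b gave differences of 0.51 ± 0.15 and 0.42 ± 0.13 SE (edgeR adjusted p = 0.0467 and 0.0486). The calls of these 5, more than their sizes, depended on single libraries. Over 23 alternative settings the difference ran from 0.52 to 0.65 for Sdha, 0.49 to 0.64 for Atp5a1, 0.50 to 0.64 for Uqcrc2, 0.46 to 0.65 for Sdhd and 0.36 to 0.49 for Atp5b, but none passed without inguinal knockout library 2, and none without inguinal knockout library 3. Without inguinal wild-type library 2 or 4, 2 passed, and without inguinal wild-type library 1 or 3, brown labelled knockout library 3 or 4, or any brown wild-type library, 3 passed. Without brown labelled knockout library 1, 6 members passed, the 5 and Sdhc, beside 21.2% of genes (11.3% higher and 9.92% lower), and Sdhd then differed by 0.65 ± 0.12 SE, edgeR adjusted p = 0.00110. Of the inguinal decreases, Atp5g3 did not pass with a difference of -0.23 ± 0.18 SE (edgeR adjusted p = 0.445). Markers differed too: 10 of the 12 muscle markers tested and 1 of 4 epithelial markers were lower in this contrast, and 3 of 8 brown and beige markers were higher, by up to 5.56 on the log2 scale. Their part in the differences was not tested. Tissue and age cannot be told apart in it.

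Between the wild-type groups, brown fat at day 0.5 had more mRNA of nearly all members than inguinal fat at day 24. Of the 39, 32 were higher in brown fat and 3 lower, so 35 passed, or 89.7%, beside 61.4% of 15979 genes. Higher calls made up 30.7% of all genes and lower calls 30.7%. The median log2 difference was 0.63 over the members and 0.01 over all genes. The sums were 4326 ± 218 CPM in brown and 2630.1 ± 150.1 CPM in inguinal fat for complex II (SD, n = 4 each, ratio 1.64), and the ratios of the sums for complexes III, IV and V were 1.64, 1.58 and 1.60. The same 35 members passed under each of the 17 alternative settings. Tissue and age cannot be told apart.

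All members of complex II and complex IV were higher in brown fat, by log2 differences of 0.37 to 0.84 and 0.43 to 0.97. Sdha, Sdhb and Sdhd were among the 12 members with the smallest p. Sdha had 2596, 2274, 2284 and 2279.7 CPM in brown libraries, against 1430.0, 1395, 1455 and 1227 CPM in inguinal libraries (log2 difference 0.78 ± 0.09 SE, edgeR adjusted p = 1.26e-05). Sdhb had 813, 833, 729 and 728 CPM in brown libraries, against 461, 428, 452 and 391 CPM in inguinal libraries (log2 difference 0.84 ± 0.08 SE, edgeR adjusted p = 4.39e-06). The anchor gene Sdhd had 739, 781, 718 and 695 CPM in brown libraries, against 482, 460.2, 466 and 452 CPM in inguinal libraries (log2 difference 0.66 ± 0.07 SE, edgeR adjusted p = 9.28e-06). The lowest brown library lay well above the highest inguinal library for each of the 3.

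In complex IV, Cox5b, which binds zinc on the matrix side, and the small subunit gene Cox7b followed the same direction. Cox5b had 423, 465, 444 and 414 CPM in brown libraries, against 275, 272, 268 and 277 CPM in inguinal libraries (log2 difference 0.68 ± 0.07 SE, edgeR adjusted p = 5.06e-06). Cox7b had 928, 998, 874 and 819.8 CPM in brown libraries, against 473, 471, 488 and 474 CPM in inguinal libraries (log2 difference 0.93 ± 0.08 SE, edgeR adjusted p = 1.50e-06). Cox5a had 211, 233, 205 and 195 CPM in brown libraries, against 112, 106, 108 and 106 CPM in inguinal libraries (log2 difference 0.97 ± 0.07 SE, edgeR adjusted p = 4.31e-07). The tissues did not overlap for any of these 3 genes. Among the electron carriers, Cyc1 had 1214, 1221, 1124 and 1107 CPM in brown libraries, against 629, 584, 637 and 603 CPM in inguinal libraries (log2 difference 0.93 ± 0.08 SE, edgeR adjusted p = 9.25e-07), and Cycs differed by 0.52 ± 0.09 SE. Neither gene overlapped between the groups. In complex III, Uqcrc2 had 1676, 1747, 1432 and 1445 CPM in brown libraries, against 824, 808, 837 and 783 CPM in inguinal libraries (log2 difference 0.95 ± 0.09 SE, edgeR adjusted p = 2.59e-06). The 3 small subunits that stood out in brown fat, Uqcrq, Uqcr10 and Uqcr11, overlapped between the wild-type tissues, with log2 differences of 0.07 ± 0.10, 0.16 ± 0.10 and 0.14 ± 0.11 SE. Atp5k was the fourth member that did not pass, with 0.05 ± 0.08 SE.

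**Figure D5:**
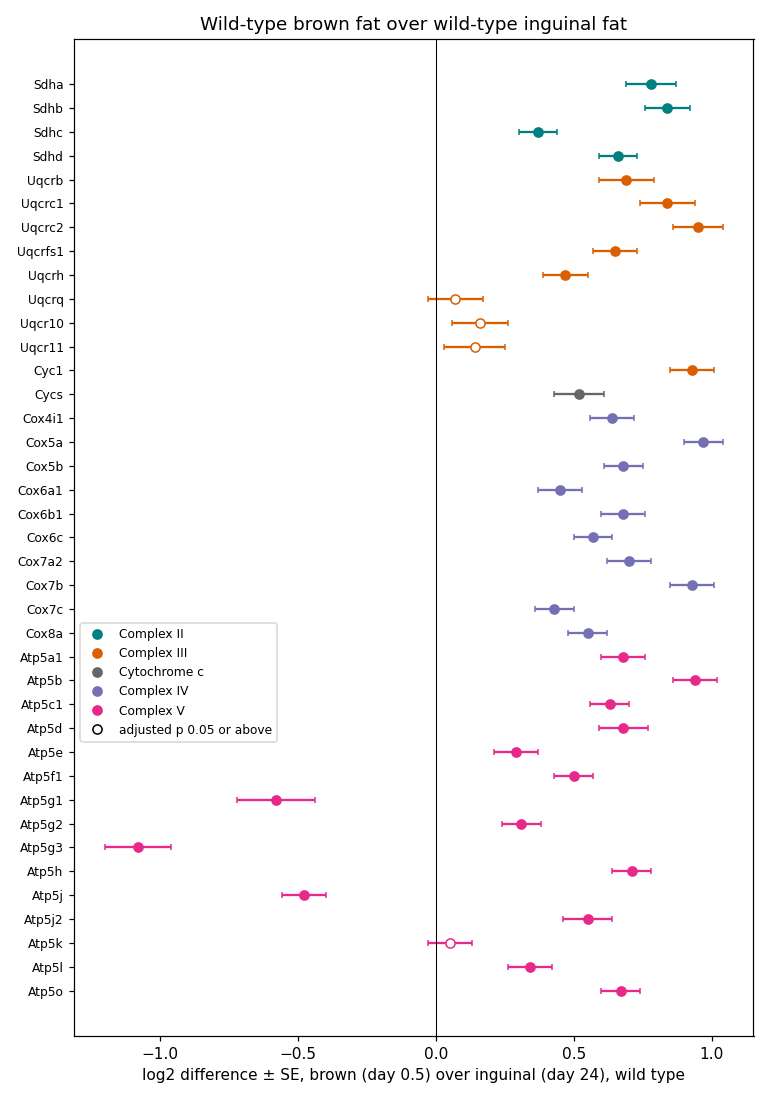
Log2 difference (x axis) of each member (y axis) between wild-type brown fat at day 0.5 and wild-type inguinal fat at day 24. Points are edgeR estimates, bars are 1 SE, and filled points passed an adjusted p below 0.05; 32 filled points lie to the right of 0, and Atp5g1, Atp5g3 and Atp5j lie to the left.

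Complex V was again divided. Atp5b had 7713, 7309, 7352 and 7148 CPM in brown libraries, against 3961, 3767, 3987 and 3679 CPM in inguinal libraries (log2 difference 0.94 ± 0.08 SE, edgeR adjusted p = 1.61e-06). Atp5c1, the γ subunit that turns within the head, had 899.9, 933, 915 and 892 CPM in brown libraries, against 580.3, 586, 596 and 585 CPM in inguinal libraries (log2 difference 0.63 ± 0.07 SE, edgeR adjusted p = 8.23e-06). The stalk genes Atp5h and Atp5o, which encode subunit d and the oligomycin sensitivity protein, were also separate between the tissues. Atp5h had 499.8, 562, 528 and 483 CPM in brown libraries, against 318, 314, 315 and 319.7 CPM in inguinal libraries (log2 difference 0.71 ± 0.07 SE, edgeR adjusted p = 5.47e-06). Atp5o had 684, 717, 697 and 653 CPM in brown libraries, against 449.8, 411, 424 and 450.1 CPM in inguinal libraries (log2 difference 0.67 ± 0.07 SE, edgeR adjusted p = 9.36e-06). The c subunit genes were divided among themselves. Atp5g3 had 208, 291, 209.8 and 250.4 CPM in brown libraries, against 494, 463, 473 and 599 CPM in inguinal libraries (log2 difference -1.08 ± 0.12 SE, edgeR adjusted p = 1.56e-05). Atp5g1 had 19.7, 22.5, 14.2 and 16.4 CPM in brown libraries, against 27.1, 24.8, 24.6 and 32.2 CPM in inguinal libraries (log2 difference -0.58 ± 0.14 SE, edgeR adjusted p = 0.00422). No brown library reached the lowest inguinal library for either. Atp5g2, the other c subunit gene, was higher in brown fat (log2 difference 0.31 ± 0.07 SE, edgeR adjusted p = 0.00168). Atp5j was lower (log2 difference -0.48 ± 0.08 SE, edgeR adjusted p = 0.000161), with Gabpa on the opposite strand higher by 1.28 ± 0.07 SE. The wild-type inguinal libraries also serve in the inguinal knockout comparison, where Atp5b changed by 0.42 ± 0.10, Atp5g3 by -0.55 ± 0.11, Atp5g1 by -0.16 ± 0.14 and Atp5j by -0.32 ± 0.09, so these values share samples and are set side by side only.

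Of the 6 alternative isoform genes tested between the wild-type tissues, 5 were higher in brown fat and 1 lower. Cox7a1 had 444, 466, 394 and 389.8 CPM in brown libraries, against 163, 171, 183 and 144 CPM in inguinal libraries (log2 difference 1.36 ± 0.09 SE, edgeR adjusted p = 2.26e-07). Cox6a2, the heart and muscle form of subunit 6a, differed by 3.86 ± 0.25 SE. Muscle markers summed to 2437 to 4161 CPM in brown and 149 to 424 CPM in inguinal wild-type libraries, and all 12 tested passed, 10 higher and 2 lower in brown fat. Brown and beige markers summed to 5201 to 9481 CPM in brown and 1216 to 1863 CPM in inguinal libraries. Among them Ucp1, Cidea, Pank1 and Ppargc1a were higher in brown fat, and Dio2, Elovl3, Prdm16 and Otop1 did not pass. Of the general adipocyte markers, 7 of 8 were lower in brown fat. Endothelial markers summed to 1043 to 1274 CPM in brown and 766 to 925 CPM in inguinal libraries. The sums were 190 to 238 and 298 to 413 CPM for macrophage markers. They were 3.63 to 4.76 and 11.7 to 20.2 CPM for B-cell markers. The part of these cell types in the values of the members was not tested.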

How the data were processed

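Raw counts per gene were deposited by the authors as 1 table of 15 libraries, with no normalization. Per the labels' protocols the libraries were made from polyadenylated RNA with a stranded kit. Per the submitters' processing notes, TopHat2 2.1.0, Subread, featureCounts and edgeR were used with genome build mm9; the annotation, the strand setting of the counting and the treatment of multi-mapped reads are details not given in the sources used here. All per-library columns were mapped to a sample, so 0 were left out.

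Identifiers were named from the supplied gene table (32919 of 37991 matched, the rest kept their identifier); 192 of 193 entries of the gene lists were found. The members and lists were chosen with earlier results of these data known. The libraries of each comparison were fitted alone, with TMM scaling, filterByExpr with a minimum count of 10, and edgeR's robust quasi-likelihood test (edgeR 4.0.16, limma 3.58.1, R 4.3.3), with Benjamini-Hochberg adjustment over all genes and a threshold of 0.05. The difference between tissues used all 15 libraries. SE was derived from the log2 change and its F statistic, as the size of the change over the root of F. Counting error is small for abundant genes at 26059635 counts or more per library. Their precision is set mainly by the number of libraries and the spread between them. For genes of low level, such as Il33 with 1083 counts over all libraries, counting error is larger. Between libraries of 1 group, chi-square over its degrees of freedom was at least 14.7, so none was a second sequencing of the same library. The check compares with counting error only and cannot show whether libraries came from separate animals.

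Any member may be named; values per library are given for the member with the smallest p and the one with the largest change in each complex and tissue, and for called members (the 12 with the smallest p where more passed). A few further members chosen after their values were seen are given for context: Cyc1, Atp5l, Uqcrfs1, Atp5g2, Cox4i1, and in brown fat Sdha, Sdhd, Uqcr10 and Atp5g3, and in wild-type tissues Atp5g1 and Atp5g3. Other lists are given as counts, with up to 4 genes named by smallest p; the isoform genes Cox6a2 and, between tissues, Cox7a1 were chosen after their values were seen. Copies were found with blastn 2.17.0. Promoter windows come from RefSeq on GRCm38.p6, and copies, neighbours and coding lengths from GENCODE. Coordinates were used without conversion.

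Alternatives were RLE size factors, 2 other filters, DESeq2 1.42.0, limma-voom, other dispersions, scaling without features over 1% of counts, all 4 groups fitted together, a replicate block, and each library left out in turn. Whether replicate numbers pair the samples is not settled, and the main fits used no pairing. Correlations of deviations across genes were weak, at -0.036 to 0.141 in brown and -0.051 to 0.009 in inguinal fat. Summed muscle markers, however, were close between brown libraries of the same number. They were 4165, 3146.5, 2431 and 2856 CPM in labelled knockout libraries, against 4161, 3303, 2437 and 2802 CPM in wild-type libraries. Scripts were tested on simulated data with 200 changed genes per comparison, drawn at random from all genes tested. The shares recovered therefore describe genes of all levels, not the members. Of the genes called, 6.59% to 8.11% were unchanged ones.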

Additional observations from a re-analysis of the deposited data

Results flagged for a closer look

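In 9 of 117 sets of 4 libraries, a library lay far from the other 3 for a member; chance alone gives about 1 in 20. In the brown labelled knockout group, library 1 had 853.8 CPM of Sdhd, with the other 3 at 609.1 to 642.7 CPM, and 19.29 CPM of Atp5g1, with the others at 14.85 to 14.99 CPM. The same library had 1200.8 CPM of Cyc1, with the others at 1267.3 to 1280.1 CPM. Library 4 of that group had 165.2 CPM of Cox7c, with the others at 131.2 to 135.2 CPM, and 123.1 CPM of Atp5j, with the others at 137.6 to 140.3 CPM. Library 3 had 264.3 CPM of Uqcrb, with the others at 322.2 to 332.4 CPM. Among brown wild-type libraries, library 2 had 172.0 CPM of Atp5l (the others 135.6 to 141.8 CPM) and library 1 had 2596.1 CPM of Sdha (the others 2274.3 to 2284.4 CPM). In inguinal wild-type fat, library 3 had 488.1 CPM of Cox7b, with the others at 471.3 to 473.9 CPM.

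The knockout effect differed between inguinal and brown fat, by the test of the difference itself, for Sdha (0.57 on the log2 scale), Atp5a1 (0.55), Uqcrc2 (0.58), Sdhd (0.51) and Atp5b (0.42). None of these genes kept its call in every alternative setting. None passed without inguinal knockout library 2, and none without inguinal knockout library 3. Il33 did not settle the labels of the brown libraries. For Sdhd the brown estimate includes library 1 of the labelled knockout group, the library that stood apart for this gene; without it the difference was 0.65 ± 0.12 SE (edgeR adjusted p = 0.00110).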

How the results depend on the processing

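Over all 39 members and 16 alternative settings of the inguinal comparison, 578 of 624 values kept their side of the threshold; the other 46 came from 9 members, Cyc1 (13), Atp5l and Uqcrq (9 each), Atp5d, Atp5g2 and Uqcrfs1 (4 each), and Sdhc, Uqcrh and Atp5c1 (1 each). No member that passed turned its direction. The estimates of 6 members that did not pass crossed 0. Cycs had 0.06 under limma-voom and 0.22 without inguinal knockout library 2, and ran from -0.31 to 0.22 over single libraries left out. Over all settings Atp5h ran from -0.07 to 0.09, Cox5b from -0.17 to 0.10, Cox6a1 from -0.12 to 0.10, Cox6b1 from -0.06 to 0.07 and Cox8a from -0.12 to 0.01. The cause was not tested. Inguinal members passing were 14, and 10 to 13 with 1 library left out; genes passing were 4498, 2249 with all 4 groups in 1 fit, and 3274 to 4719 with 1 library left out. In brown fat 0 members passed, against 1 with DESeq2, 4 with all 4 groups in 1 fit, 6 with limma-voom, and 0 to 5 with 1 library left out. Brown genes passing were 41, against 67 with no filter on low counts, 1032 with DESeq2, 3127 with limma-voom, 1151 with all 4 groups, and 2 to 2905 with 1 library left out; 2905 came from leaving out labelled knockout library 1. For the difference between tissues 5 members passed, against 3 with no filter, 8 with limma-voom and 0 to 6 with 1 library left out; genes passing were 1517, against 2330 with DESeq2, 3696 with limma-voom and 632 to 3571 with 1 library left out. Between wild-type tissues 35 members passed each time and genes passing ranged from 9106 to 9950 with 1 library left out. In CPM of the total count, the inguinal sums averaged 4745 CPM in knockout and 4039 CPM in wild-type libraries for complex III (ratio 1.17) and 4152 CPM in knockout and 4374 CPM in wild-type libraries for complex IV (ratio 0.949, turned). Complex II then had a ratio of 1.32 and complex V 1.13. The brown complex V sum averaged 15585 CPM in labelled knockout and 16215 CPM in wild-type libraries.

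Correlations of same-numbered deviations were mostly under 0.1, but summed muscle markers were close between same-numbered brown libraries. Pairing by replicate number is therefore not settled. With the replicate block, 12 members passed in inguinal fat (Atp5l and Cyc1 lost), 0 members and 7 genes in brown fat, and 1 member (Sdha) and 859 genes in the difference between tissues. In simulated counts for the difference between tissues, 8.96% of genes changed 1.5 fold and 47.8% of genes changed 2 fold were recovered.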
